A study of Homo sapiens with 8 samples.

Results

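The genes described are 44 heat shock proteins, co-chaperones, chaperonin subunits and heat shock factors, measured as mRNA in the human embryonic kidney cell line HEK293. They were listed by name and family, and all 44 were found among the 27936 genes of the count tables, 43 by current symbol and HSPB11 by an older symbol. They comprise 3 HSP90 genes, 9 HSP70 and HSP110 genes, 7 HSP40 genes, 3 small HSP genes, 2 mitochondrial chaperonin genes, 4 heat shock factor genes or genes for proteins that bind them, 9 co-chaperone genes and 7 CCT chaperonin genes. Although the name of the set is cytosolic, 4 of its genes (TRAP1, HSPA9, HSPD1 and HSPE1) encode mitochondrial proteins. The study compared 4 libraries labelled TIP60 KO (genotype HEKg1/C9) with 4 labelled control (genotype HEKg1). TIP60, the product of KAT5, is an enzyme that acetylates histones and other proteins. Of the 4 libraries of an arm, 2 bore the label sgRNA1 and 2 sgRNA2, and guide RNA expression was switched on in all 8 by doxycycline (1 µg/ml, 3 days). What the control guides target and what the added element of the KO genotype stands for are not given in the labels, and nothing says that replicates came from separate cultures, so p-values measure the spread between these libraries only.

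Chaperones hold unfolded or partly folded proteins and, with ATP, let them fold. HSP70 binds short exposed stretches, HSP40 proteins deliver clients to it and start its ATP cycle, nucleotide exchange factors release them, and HSP90 takes over a set of late folding intermediates such as kinases and steroid receptors with the help of co-chaperones. CCT is a ring-shaped cytosolic chaperonin that folds actin and tubulin, HSPD1 and HSPE1 form the mitochondrial chaperonin, and heat shock factor 1, the product of HSF1, induces many of these genes after heat or other damage to proteins.

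KAT5 was measured first as a check of the labels. Its level, in CPM (library-scaled counts, with TMM factors), was 48.2, 45.5, 44.5 and 49.0 in the control libraries and 18.6, 18.3, 20.2 and 18.0 in the KO libraries, always given in the order sgRNA1 replicates 1 and 2, then sgRNA2 replicates 1 and 2. Every KO library lay below every control library (log2 fold change -1.32 ± 0.0641, SE; n = 4 per arm; edgeR quasi-likelihood test with Benjamini-Hochberg adjustment over all tested genes, adjusted p = 6.71e-13). In RNA from a whole culture, fewer cells with a transcript and less of it per cell cannot be told apart. In GENCODE v29, 38.6% of KAT5 exonic bases overlap RNASEH2C on the opposite strand, and the strand setting of the counting is not given. Library totals ran from 3723992 to 18841774 counts. Control sgRNA1 replicate 2 was the shallowest, at 29.8% of the total of the next control. Mitochondrially encoded genes held 1.46 to 3.27% of the counts over the 8 libraries, a range set by the controls. VIM, KRT8, KRT18 and PAX2, taken as HEK293-type markers, summed to 411 to 485 CPM in controls and 407 to 430 CPM in KO. VIM fell (log2 fold change -0.30), KRT8 rose (0.36), and KRT18 and PAX2 did not pass. PAX2 added little to the sum, with means of 0.706 CPM in controls and 0.902 CPM in KO. Among markers of other cell types, the 5 leukocyte genes summed to 0.566 to 1.078 CPM in controls and 1.40 to 2.04 CPM in KO, the 4 endothelial genes to 0 to 0.404 and 2.78 to 3.80 CPM, the 5 fibroblast genes to 18.6 to 28.99 and 24.2 to 28.2 CPM, and the 4 hepatocyte genes to 0 to 0.069 and 0.234 to 0.594 CPM. Of these 18 marker genes, only CD14, COL1A1, COL1A2, COL3A1 and KDR had enough counts to be tested. CD14 and KDR rose, and the collagen genes did not pass. SERPINA1 had no count in any library, CDH5, ALB, TTR, CD3E, DCN and LUM had none in any control library, and the part of these markers in the chaperone results was not tested.

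The heat shock element, an inverted repeat of GAA units bound by heat shock factors, was searched by its letters in RefSeq promoters (250 bases before to 50 after an annotated start, GRCh38.p14), for which 40 of the 44 genes had an entry. The 2-unit form (GAANNTTC or TTCNNGAA) stood in 20 of these 40 genes and in 16.2% of 27305 genes in the table. The 3-unit form (GAANNTTCNNGAA or TTCNNGAANNTTC, each of which contains 2-unit forms) stood in 7 of 40 (17.5%) and in 0.608% of all genes. Both forms read on both strands. The 7 genes with the 3-unit form are shown because their mRNAs did not move in 1 direction: HSP90AA1 and DNAJB6 rose in KO, HSP90AB1, HSPA8, HSPD1 and CHORDC1 fell, and DNAJA1 did not pass the test. Each line is 5′ to 3′ on the strand of the gene, in RefSeq sequence, with the bases of the 3-unit form in capitals.
HSP90AA1: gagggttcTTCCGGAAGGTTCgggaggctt
HSP90AB1: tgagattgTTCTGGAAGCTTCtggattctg
HSPA8: cgggccccTTCTGGAAGGTTCtaagatagg
HSPD1: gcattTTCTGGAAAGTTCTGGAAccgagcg
CHORDC1: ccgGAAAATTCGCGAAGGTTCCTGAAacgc
DNAJB6: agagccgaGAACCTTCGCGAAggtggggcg
DNAJA1: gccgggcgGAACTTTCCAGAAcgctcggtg
These 30-base windows lie in GRCh38.p14 for HSP90AA1 at chr14:102087111-102087140 on the minus strand, HSP90AB1 at chr6:44247823-44247852 on the plus strand, HSPA8 at chr11:123062170-123062199 on the minus strand and HSPD1 at chr2:197500061-197500090 on the minus strand. The others are CHORDC1 at chr11:90223083-90223112 on the minus strand, DNAJB6 at chr7:157336865-157336894 on the plus strand and DNAJA1 at chr9:33025268-33025297 on the plus strand. The windows of HSP90AA1, HSPA8, CHORDC1 and DNAJA1 touch an annotated exon of their own gene, that of HSPD1 touches exons of both HSPD1 and HSPE1, and those of HSP90AB1 and DNAJB6 touch none. Such a match is a description of letters and not a measured binding site.

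Longer stretches before the start are shown for HSP90AB1, which fell while its paralog rose, and for BAG2 and HSBP1L1, which fell by more than 1.5-fold. Capitals mark the 3-unit form in HSP90AB1 and the 2-unit form in BAG2. HSBP1L1 holds neither form in this window.
HSP90AB1: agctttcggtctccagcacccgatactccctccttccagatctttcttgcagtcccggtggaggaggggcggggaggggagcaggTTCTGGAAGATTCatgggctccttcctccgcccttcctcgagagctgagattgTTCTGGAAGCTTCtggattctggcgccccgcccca
BAG2: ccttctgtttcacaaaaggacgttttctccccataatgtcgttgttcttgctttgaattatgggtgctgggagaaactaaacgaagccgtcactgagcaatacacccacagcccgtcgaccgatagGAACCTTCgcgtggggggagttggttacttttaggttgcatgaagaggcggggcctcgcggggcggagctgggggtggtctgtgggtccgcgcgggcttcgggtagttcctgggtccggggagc
HSBP1L1: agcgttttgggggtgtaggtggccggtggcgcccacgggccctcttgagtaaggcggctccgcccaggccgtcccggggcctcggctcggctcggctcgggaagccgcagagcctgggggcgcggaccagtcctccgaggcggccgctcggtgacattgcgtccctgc
The stretches are chr6:44247693-44247865 (173 bases), chr6:57172076-57172325 (250 bases) and chr18:79964393-79964560 (168 bases), all on the plus strand of GRCh38.p14. That of BAG2 overlaps an exon of the antisense gene ZNF451-AS1.

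In KO against control, the chaperone genes moved in both directions. The HSP90 genes and the co-chaperones moved unevenly: HSP90AA1 rose while HSP90AB1 and 7 of 9 co-chaperones, some of them partners of HSP70, fell. The 2 stress-inducible HSP70 genes HSPA1A and HSPA1B, HSPA2 and 4 of 7 HSP40 genes rose, whereas the 4 mitochondrial members and 4 of 7 CCT subunits fell and BAG3, an HSF1-induced co-chaperone, did not pass the test. Of the 44 genes, 43 had enough counts to be tested, and 11 rose, 21 fell and 11 did not pass at an adjusted p of 0.05 (edgeR, with all 8 libraries and the guide number in the model). Called genes thus made up 74.4% of the 43, where 63% of all 14455 tested genes were called (31.8% higher and 31.2% lower). Among the 803 tested genes at least as abundant as the median chaperone gene, 71.1% were called, 23% higher and 48.1% lower. Of the 22 chaperone genes in that range of abundance, 2 rose, 13 fell and 7 did not pass, and of the 21 tested below it 9 rose, 8 fell and 4 did not pass. The median log2 fold change was -0.10 over the 43 genes, 0.01 over all tested genes and -0.10 over the abundant ones.

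Most changes were small. The log2 fold change lay within ±0.58, the log2 of 1.5, for 37 of the 43 genes, and ran from -1.44 for HSBP1L1 to 1.30 for HSPA2. Against a fold of 1.5 as the null (edgeR glmTreat), HSPA2 passed as higher and HSBP1L1, BAG2 and FKBP4 as lower, where 11.2% of all tested genes passed (8.41% higher, 2.77% lower). FKBP4 missed that threshold with library totals as the only scaling, with DESeq2, after thinning to the smallest library, and without KO sgRNA1 replicate 2 or control sgRNA1 replicate 1. HSBP1L1 missed it after thinning. HSPA1B did not pass (glmTreat adjusted p = 0.0547), but passed with library totals, with no filter, with a replicate block and after thinning. It also passed without KO sgRNA1 replicate 2, KO sgRNA2 replicate 1 or control sgRNA2 replicate 2. With DESeq2, DESeq2 size factors or a stricter filter, or without any other single library, HSPA1B did not pass. The CPM of the 4 KO and 4 control libraries did not overlap for 9 genes that were higher and 18 that were lower in KO, beside 27.3% and 25.6% of all tested genes (52.9% either way). Without the shallow control library, 11 chaperone genes rose and 25 fell, where 30.9% of all genes tested in that fit rose and 32% fell.

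**Figure D1:**
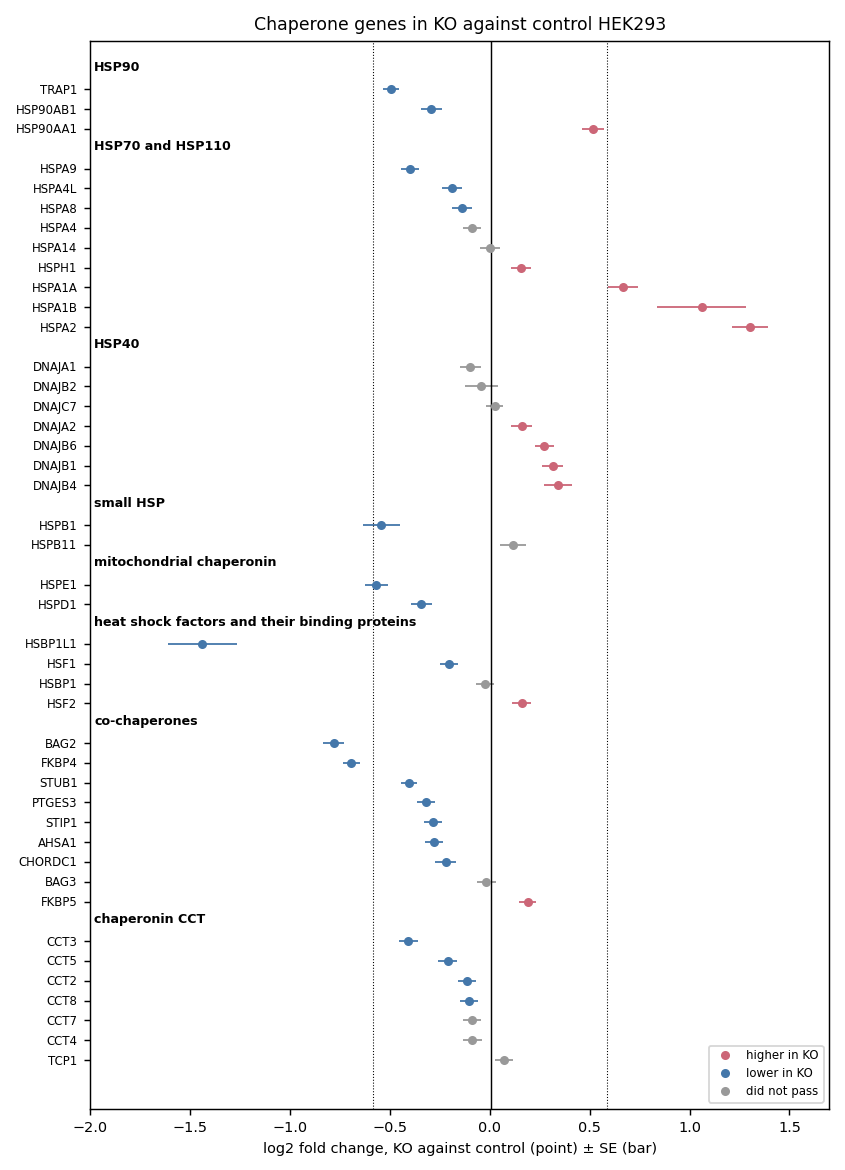
Log2 fold change of KO against control (x axis) for the 43 tested chaperone genes, grouped by family (y axis), with points at the estimate and bars of 1 SE. Red points rose, blue fell and grey did not pass; the dotted lines mark 1.5-fold and the solid line the median of all tested genes (0.01). HSPA2 and HSPA1B lie farthest right and HSBP1L1 farthest left.

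The HSP90 paralogs moved in opposite directions. HSP90AA1, the stress-inducible cytosolic HSP90 (chromosome 14, 102080742 to 102139749), stood at 2598, 2283, 2420 and 2561 CPM in the controls and at 3430, 3488, 3647 and 3550 CPM in KO. HSP90AB1, the constitutive cytosolic HSP90 (chromosome 6, 44246194 to 44253883), stood at 1986, 1756, 1839 and 1957 CPM in the controls and at 1533, 1511, 1518 and 1596 CPM in KO. In neither gene did the arms overlap. The log2 fold change was 0.52 ± 0.0544 (adjusted p = 6.12e-08) for HSP90AA1 and -0.29 ± 0.0521 (adjusted p = 5.54e-05) for HSP90AB1 (edgeR). Their CPM ratio within a library, HSP90AA1 over HSP90AB1, was 1.31, 1.30, 1.32 and 1.31 in the controls and 2.24, 2.31, 2.40 and 2.22 in KO. The ratio was nearly constant among the controls (1.308 ± 0.00658, SD, n = 4) and higher in every KO library (2.29 ± 0.0819, SD, n = 4). The transcripts of the pair share no exact stretch of 80 bases, so reads of that length that match both without a mismatch do not occur between the transcripts compared.

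TRAP1, the mitochondrial HSP90, had 345, 325, 332 and 337 CPM in the controls and 234, 239, 244 and 235 CPM in KO. All KO libraries were lower and the spread within each arm was small (log2 fold change -0.50 ± 0.0408, edgeR adjusted p = 1.7e-09). In GENCODE v29, 29.3% of its exonic bases overlap DNASE1 on the opposite strand. Summed over the 3 genes, HSP90 mRNA was 4685 ± 259 CPM in the controls and 5306 ± 104 CPM in KO (SD, n = 4), a ratio of means of 1.13.

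Among HSP70 and HSP110 genes, 4 rose, 3 fell and 2 did not pass (77.8% called, beside 63% of all tested genes). HSPA2, an HSP70 best known from spermatogenesis (chromosome 14, 64535905 to 64543237), had 8.16, 9.97, 9.39 and 8.38 CPM in the controls and 22.2, 21.1, 20.5 and 23.1 CPM in KO. The KO libraries were all more than double the highest control (log2 fold change 1.30 ± 0.0907, edgeR adjusted p = 1.43e-10), and the call held under all 16 alternatives, where the value ran from 1.249 to 1.445. HSPA1A, a classic heat-induced HSP70, had 89.2, 75.7, 79.8 and 71.8 CPM in the controls and 124, 106, 143 and 130 CPM in KO, with no overlap (0.67 ± 0.074, adjusted p = 1.28e-07). HSPA1B, its neighbour and near copy, had 16.2, 5.93, 9.46 and 21.4 CPM in the controls and 40.7, 22.2, 21.8 and 35.9 CPM in KO. The arms barely separated, with the highest control just under the lowest KO library (1.06 ± 0.224, adjusted p = 0.000348).

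HSPA1A and HSPA1B encode nearly the same protein and lie on chromosome 6 at 31815543 to 31817942 and 31827738 to 31830254. Of the 80-base windows of their transcripts, 71.0% of those of HSPA1A and 69.9% of those of HSPA1B occur exactly in the other, so how reads were divided between them is uncertain, and the ratio of HSPA1A to HSPA1B ranged from 3.06 to 12.8 over the 8 libraries. In GENCODE v29, 36.5% of HSPA1B exonic bases also overlap AL671762.1 on the same strand. HSPA1A and HSPA1B summed to 92.4 ± 9.91 CPM in the controls and 156 ± 18.4 CPM in KO (SD, n = 4). With both counted as 1 gene, an alternative chosen after seeing the data, the log2 fold change was 0.74 ± 0.074 (edgeR adjusted p = 2.66e-08). Counts in the surrounding region were sparse for many genes: between 28.5 and 33.5 Mb of chromosome 6, 22 of 166 coding genes (13.3%) reached 80 counts over the 8 libraries, against 69.6% of 828 coding genes on the rest of that chromosome. TUBB, for example, had 103 counts in all and HSPA1L, which lies beside HSPA1A, had 0, while HSPA1A had 11684 and HSPA1B 2576. The cause was not tested.

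The constitutive and mitochondrial HSP70 genes did not rise. HSPA8, the main constitutive cytosolic HSP70, had 883, 782, 823 and 891 CPM in the controls and 724, 771, 760 and 817 CPM in KO, with overlap (-0.14 ± 0.0512, edgeR adjusted p = 0.0224), and it missed the threshold in 6 of 16 alternatives. HSPA9, the mitochondrial HSP70, had 716, 649, 676 and 719 CPM in the controls and 519, 533, 523 and 518 CPM in KO, with no overlap (-0.40 ± 0.046, adjusted p = 2.06e-07). The HSP110 genes, whose products act as nucleotide exchange factors of HSP70, differed, and the arms overlapped in each of them. HSPH1 rose by 0.15 ± 0.0497 (edgeR adjusted p = 0.0102) and missed the threshold in 3 alternatives. HSPA4L fell by 0.19 ± 0.0504 (adjusted p = 0.00268), with -0.29 for sgRNA1 and -0.10 for sgRNA2, where it did not pass. HSPA4 had -0.09 ± 0.0461 (adjusted p = 0.0952). HSPA14, a ribosome-associated member, had 130 ± 8.94 CPM in the controls and 131 ± 4.06 CPM in KO (SD, n = 4). The family sum was 2568 ± 135 CPM in the controls and 2387 ± 58.8 CPM in KO, since HSPA8 and HSPA9 outweigh the low-level genes that rose.

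**Figure D2:**
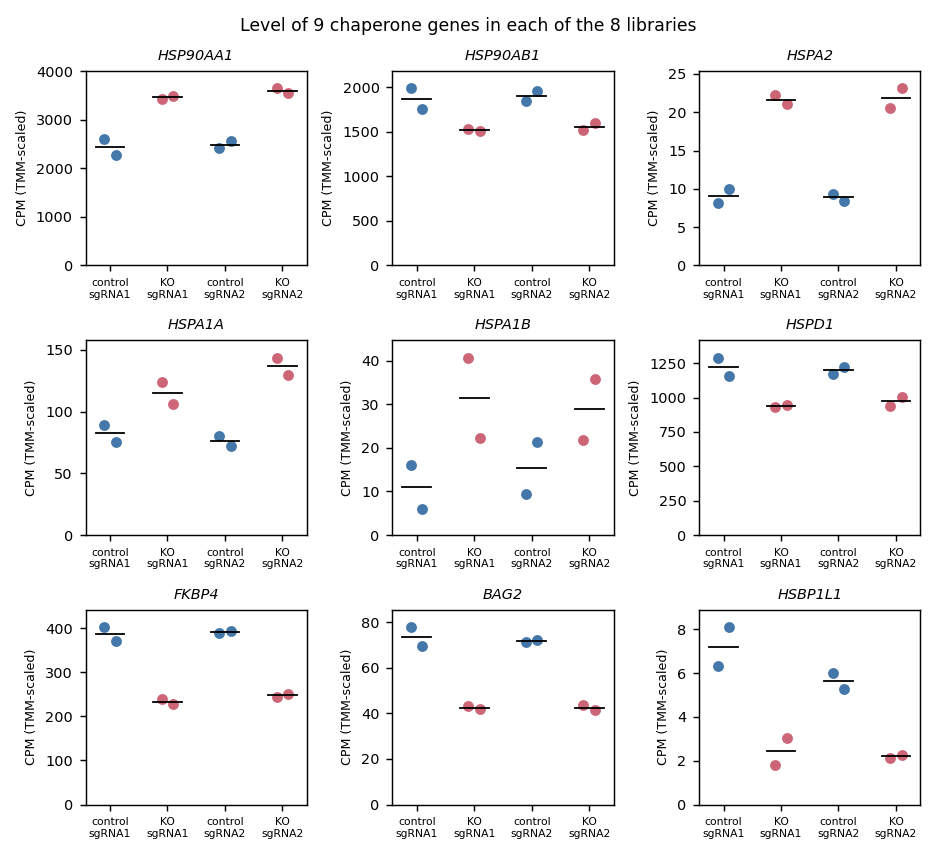
CPM scaled by TMM factors (y axis, from 0) of 9 chaperone genes in each of the 8 libraries, by arm and guide number (x axis), with control in blue, KO in red and a line at the mean of each pair. HSP90AA1, HSPA2, HSPA1A and HSPA1B sit higher in KO and HSP90AB1, HSPD1, FKBP4, BAG2 and HSBP1L1 lower; the spread within an arm is widest, relative to the level, for HSPA1B.

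HSP40 proteins bring clients to HSP70, and 4 of their 7 genes rose, 3 did not pass and none fell. Called genes were thus 57.1%, beside 63% of all tested genes (31.8% higher). DNAJB1, a heat-induced HSP40, had 79.3, 70.6, 76.2 and 83.4 CPM in the controls and 96.4, 103, 97.4 and 92.6 CPM in KO. DNAJB6, known for holding back aggregation, had 78.9, 85.9, 82.1 and 79.2 CPM in the controls and 97.0, 98.0, 96.2 and 101 CPM in KO. In both genes every KO library was above every control, by log2 fold changes of 0.31 ± 0.0522 (edgeR adjusted p = 2.51e-05) and 0.27 ± 0.0458 (adjusted p = 2.73e-05). DNAJB4 rose by 0.34 ± 0.0723 (edgeR adjusted p = 0.000349) and DNAJA2 by 0.16 ± 0.053 (adjusted p = 0.0124), with overlapping libraries. DNAJB4 did not pass with sgRNA1 alone (0.26), nor DNAJA2 with sgRNA2 alone (0.12). DNAJA1, which carries the 3-unit element shown above, had 245 ± 19.6 CPM in the controls and 231 ± 8.60 CPM in KO (SD, n = 4; adjusted p = 0.103). DNAJC7 and DNAJB2 had log2 fold changes of 0.03 and -0.04.

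Small heat shock proteins hold unfolding proteins without ATP. HSPB1, the best known of them, had 24.7, 15.6, 23.2 and 25.7 CPM in the controls and 15.01, 16.2, 15.9 and 16.8 CPM in KO. It fell (-0.54 ± 0.0926, edgeR adjusted p = 3.36e-05), although control sgRNA1 replicate 2, the shallow library, lay among the KO values. HSPB11, which also works in cilia, had 29.2, 25.3, 31.7 and 30.9 CPM in the controls and 31.8, 33.2, 32.8 and 31.8 CPM in KO (0.12 ± 0.0636, adjusted p = 0.116). HSPB8, the partner of BAG3 in the removal of damaged proteins, was too low to test, with 7, 0, 5 and 1 counts in the controls and 10, 7, 4 and 6 counts in KO.

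The mitochondrial chaperonin fell in both of its parts. HSPD1, its ring subunit, had 1290, 1156, 1174 and 1226 CPM in the controls and 934, 943, 940 and 1008 CPM in KO. HSPE1, the lid, had 97.0, 76.8, 88.7 and 90.2 CPM in the controls and 59.5, 65.0, 62.2 and 55.7 CPM in KO. The arms were apart in both (HSPD1 -0.34 ± 0.0503, edgeR adjusted p = 5.74e-06; HSPE1 -0.57 ± 0.0596, adjusted p = 5.88e-08). The genes lie head to head on chromosome 2, HSPD1 at 197486584 to 197500274 and HSPE1 at 197500379 to 197503449, with 104 bases between them, and 14.2% of HSPE1 exonic bases overlap HSPD1 on the other strand in GENCODE v29. With TRAP1 and HSPA9, all 4 mitochondrial members fell, by log2 fold changes of 0.34 to 0.57 in size, and their sum was 2324 ± 107 CPM in the controls and 1778 ± 29.5 CPM in KO (SD, n = 4).

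Among the genes of heat shock factors and their binding proteins, HSF1 and HSBP1L1 fell, HSF2 rose and HSBP1 did not pass. HSF1, the main stress-responsive factor, had 109, 119, 105 and 105 CPM in the controls and 94.8, 94.4, 95.3 and 92.4 CPM in KO, with all KO libraries lower (-0.20 ± 0.045, edgeR adjusted p = 0.000514). HSF2, a factor active in development, rose from 57.1 ± 2.41 to 64.4 ± 2.22 CPM (SD, n = 4; adjusted p = 0.00884). HSBP1, a small protein that binds heat shock factor trimers, had 252 ± 15.6 CPM in the controls and 249 ± 10.7 CPM in KO (adjusted p = 0.682). The related HSBP1L1 (chromosome 18, 79964643 to 79970822) had 6.30, 8.08, 6.004 and 5.29 CPM in the controls and 1.81, 3.05, 2.14 and 2.25 CPM in KO, with no overlap, and showed the largest fall of the 43 genes (-1.44 ± 0.173, adjusted p = 4.09e-07).

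Among the 9 co-chaperones, 7 fell, FKBP5 rose and BAG3 did not pass (88.9% called, beside 63% of all tested genes, 31.2% lower). FKBP4, a prolyl isomerase that works with HSP90 on steroid receptors (chromosome 12, 2794970 to 2805423), had 402, 371, 388 and 392 CPM in the controls and 238, 229, 245 and 251 CPM in KO. BAG2, which regulates HSP70 and the ubiquitin ligase STUB1 (chromosome 6, 57172326 to 57189833), had 77.7, 69.5, 71.5 and 72.4 CPM in the controls and 43.3, 41.8, 43.7 and 41.4 CPM in KO. The arms were far apart in both genes relative to their spread (FKBP4 -0.69 ± 0.0425, edgeR adjusted p = 1.97e-11; BAG2 -0.78 ± 0.0508, adjusted p = 4.67e-11). In GENCODE v29, 44.2% of the exonic bases of BAG2 and 11.4% of those of FKBP4 overlap genes on the opposite strand. FKBP5, the steroid-induced paralog of FKBP4, went the other way, with 155, 138, 146 and 148 CPM in the controls and 169, 163, 170 and 172 CPM in KO (0.19 ± 0.0438, adjusted p = 0.000816).

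The other co-chaperones that fell did so by less. STUB1, a ubiquitin ligase that marks chaperone clients for degradation, fell by 0.40 ± 0.04 on the log2 scale (edgeR adjusted p = 2.7e-08), with 42.4% of its exonic bases shared with JMJD8 on the opposite strand. PTGES3, which stabilises the closed form of HSP90, fell by 0.32 ± 0.0444 and STIP1, which joins HSP70 to HSP90, by 0.28 ± 0.0445. AHSA1, the activator of the HSP90 ATPase, fell by 0.28 ± 0.0454 and CHORDC1, an HSP90 partner, by 0.22 ± 0.0521, with adjusted p-values for these 4 genes of 2.82e-06, 1.32e-05, 1.86e-05 and 0.000952. In each of these 5 genes all KO libraries were below all controls. BAG3, by contrast, had 53.7 ± 1.16 CPM in the controls and 53.0 ± 1.65 CPM in KO (SD, n = 4; adjusted p = 0.766). The co-chaperone sum, which includes the HSP70 regulator BAG2, was 2341 ± 74.2 CPM in the controls and 1857 ± 26.6 CPM in KO, a ratio of 0.793. Summed HSP90 was higher in KO.

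CCT assembles from equal numbers of its subunits, and of the 7 subunit genes in the set 4 fell and 3 did not pass (57.1% called). Of all tested genes 63% were called (31.2% lower), and of the abundant ones, which include these 7, 71.1% (48.1% lower). CCT3 had 811, 752, 773 and 799 CPM in the controls and 576, 598, 583 and 610 CPM in KO. CCT5 had 735, 646, 688 and 713 CPM in the controls and 591, 610, 600 and 609 CPM in KO. Both were lower in every KO library (CCT3 -0.41 ± 0.0453, edgeR adjusted p = 1.33e-07; CCT5 -0.21 ± 0.0472, adjusted p = 0.00062), and CCT5 shares 30.1% of its exonic bases with a gene on the opposite strand. CCT2 fell by 0.11 ± 0.0461 (adjusted p = 0.0383) and CCT8 by 0.10 ± 0.0448 (adjusted p = 0.0485), and these calls were lost in 10 and 9 of the 16 alternatives. CCT4, CCT7 and TCP1 had log2 fold changes of -0.09, -0.09 and 0.07 and did not pass. In some alternatives CCT4 and CCT7 passed as lower, and TCP1 as higher. The sum over the 7 subunits was 4346 ± 196 CPM in the controls and 3931 ± 78.8 CPM in KO (SD, n = 4).

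**Figure D3:**
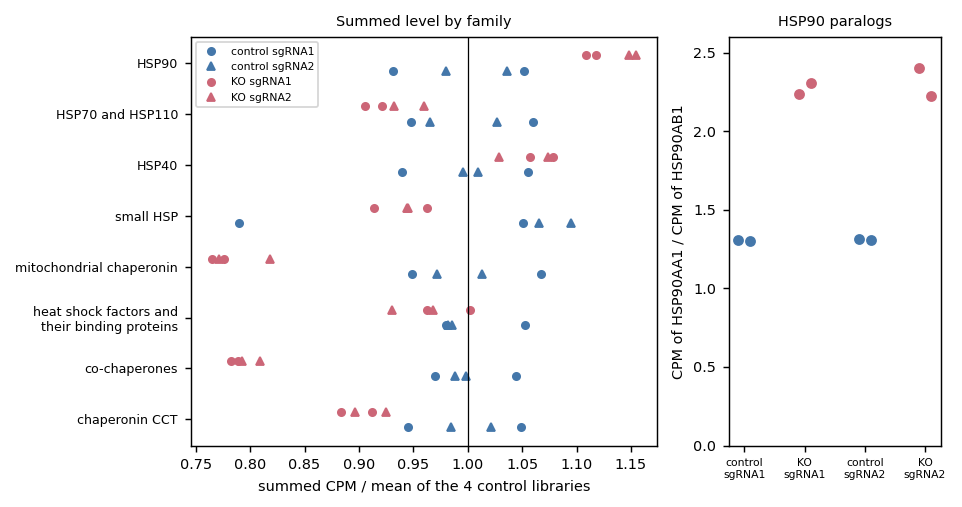
Left, summed CPM of each family (y axis) in each library, divided by the mean of the 4 control libraries (x axis); right, CPM of HSP90AA1 over that of HSP90AB1 (y axis, from 0) by arm and guide number. Control is blue and KO red, with circles for sgRNA1 and triangles for sgRNA2. Co-chaperones and the mitochondrial chaperonin lie lowest in KO (ratios of means 0.793 and 0.783), summed HSP90 lies above the controls (1.13), and the paralog ratio is 2.22 to 2.40 in KO against 1.30 to 1.32 in control.

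Over all families, the 44 genes summed to 16470 ± 772 CPM in the controls and 15755 ± 251 CPM in KO (SD, n = 4), and the ranges of 15571 to 17337 and 15454 to 16059 CPM overlapped. Without HSP90AA1 and HSP90AB1 the sums were 12120 ± 527 and 10687 ± 175 CPM, and did not overlap. Of 19 members taken as heat-inducible from textbook knowledge, 18 were tested, and 6 rose, 10 fell and 2 (DNAJA1 and BAG3) did not pass (88.9% called, beside 63% of all tested genes and 71.1% of the abundant ones). The risers of that list were HSP90AA1, HSPA1A, HSPA1B, HSPH1, DNAJB1 and DNAJB4. Its members HSPD1, HSPE1, HSPB1, HSP90AB1, FKBP4 and STIP1 were among those that fell, and the median of the list was -0.16.

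Levels were compared between genes only after division by the deposited gene length (CPM per kb). In the controls HSP90AB1 was highest at 651 CPM per kb, followed by HSP90AA1 at 604, HSPD1 at 466 and HSPA8 at 341. In KO the first places changed, with HSP90AA1 at 864 and HSP90AB1 at 532 CPM per kb. HSPA1B and HSPA2, both higher in KO, stood near the bottom of the order in the controls (5.25 and 3.24 CPM per kb). At 12.0 and 7.84 CPM per kb in KO, they remained far below HSPA8. The place of HSPA1B is uncertain, because how reads were divided between it and HSPA1A is not known. The lowest was HSPB8, at 0.124 CPM per kb in the controls.

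**Figure D4:**
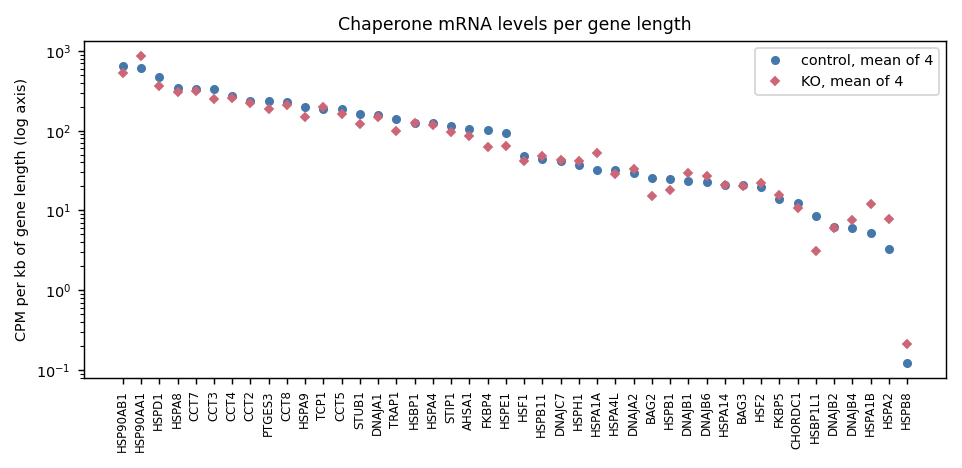
Mean CPM per kb of gene length (y axis, log scale) of all 44 chaperone genes, ordered by the control mean (x axis), with blue circles for the 4 control and red diamonds for the 4 KO libraries. The order spans from HSP90AB1 at 651 to HSPB8 at 0.124 CPM per kb in the controls, and HSPA2, HSPA1B and HSBP1L1 lie in the lower part of it.

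The comparison was then made within each guide number, where 2 KO and 2 control libraries borrow the spread of all groups. With sgRNA1, 8 chaperone genes rose and 18 fell (edgeR), where 47.6% of all tested genes were called (24.3% higher, 23.3% lower). With sgRNA2, 9 rose and 16 fell, where 51.2% of all tested genes were called (25.7% higher, 25.4% lower). Genes called the same way with both guides numbered 6 higher and 16 lower, beside 20.3% and 20% of all tested genes. The 6 were HSP90AA1, HSPA2, HSPA1A, HSPA1B, DNAJB1 and DNAJB6. Of them HSPA1B did not pass with sgRNA1 under DESeq2. The direction was the same with both guides for 41 of the 43 genes, beside 87% of all tested genes, and the exceptions, HSPA14 and DNAJB2, passed with neither guide.

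No chaperone gene passed the test of the difference in KO effect between the guides (edgeR interaction contrast; 0 of 43, beside 0% of all tested genes; DESeq2 also 0). At an unadjusted p under 0.05 there were 2 of 43 genes with edgeR and 2 with DESeq2, beside 638 of all 14455 tested genes with edgeR (4.41%) and 192 with DESeq2 (1.33%). The edgeR counts rose to 7 chaperone genes and 1235 of all genes without control sgRNA1 replicate 2, and to 3 and 1350 without control sgRNA1 replicate 1. The 2 with edgeR were HSPA1A, with log2 fold changes of 0.45 ± 0.0915 for sgRNA1 and 0.85 ± 0.0847 for sgRNA2 (unadjusted p = 0.00526 in edgeR), and HSPH1, with 0.04 ± 0.0637 and 0.26 ± 0.0615 (unadjusted p = 0.0192 in edgeR). Between the control lines, sgRNA2 against sgRNA1, 0 of 43 passed in edgeR and 4 had an unadjusted p under 0.05, beside 0.0277% of all tested genes called and 8.25% with such an unadjusted p. The 4 were HSPA4L (log2 fold change -0.22), CHORDC1 (-0.22), DNAJB4 (-0.31) and HSPH1 (-0.16). For HSPA4L and CHORDC1 the KO effects over both guides were -0.19 and -0.22, and neither gene passed with sgRNA2. For DNAJB4 and HSPH1 the KO effects over both guides were 0.34 and 0.15, and neither gene passed with sgRNA1. The comparison between control lines was not run under DESeq2.

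**Figure D5:**
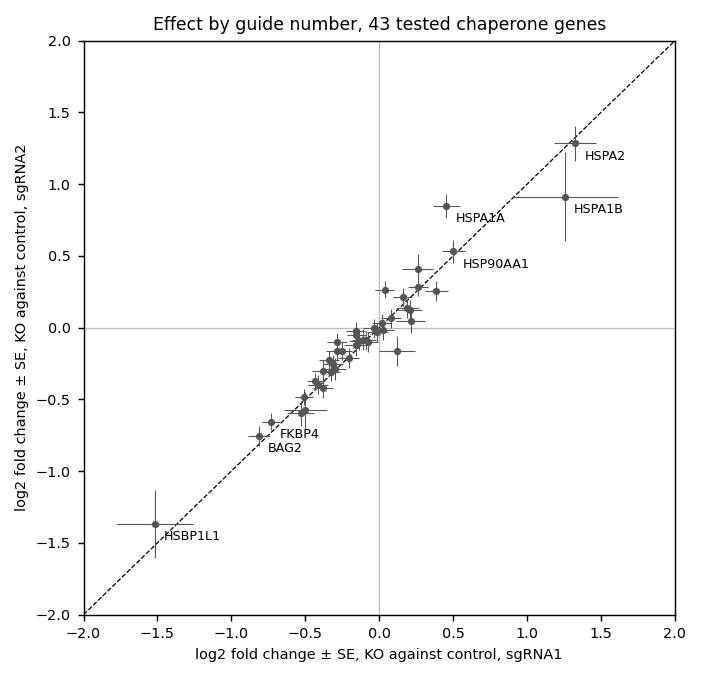
Log2 fold change of KO against control with sgRNA1 (x axis) and with sgRNA2 (y axis) for the 43 tested chaperone genes, with bars of 1 SE and a dashed line where both are equal. HSPA2 and HSBP1L1 lie near the line at both ends, and HSPA1A lies above it (0.45 and 0.85).

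Other genes of the folding machinery, 122 in 9 lists drawn up by family or textbook role, gave 101 tested genes. Of these 30 rose and 30 fell (59.4% called, beside 63% of all tested genes, 31.8% higher and 31.2% lower). The share called was 50% for further HSP90 co-chaperones, 60% for HSP70 cofactors and 46.2% for CCT, prefoldin and related genes. It was 51.9% for DNAJC genes, 75% for endoplasmic reticulum chaperones and 87.5% for other heat shock factors and heat-induced genes. Of 22 tested further HSP90 co-chaperones 9 fell, among them the phosphatase PPP5C (-0.43), FKBP8 (-0.42) and NUDCD2 (-0.55), while RPAP3 (0.25) and NUDCD1 (0.20) rose. Of 10 further HSP70 cofactors 4 fell and 2 rose. BAG1, a nucleotide exchange factor, fell by 0.54 ± 0.0533 (edgeR adjusted p = 2.59e-08). GRPEL1 and GRPEL2, the exchange factors of mitochondrial HSP70, both fell by 0.36, as HSPA9 itself did by 0.40.

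The list of other CCT and prefoldin genes gave 4 falls and 2 rises among 13 tested. Prefoldins pass actin and tubulin to CCT, and the list also holds prefoldin-like and phosducin-like genes. CCT6A fell (-0.37), like CCT3, and PFDN2 fell (-0.43). CCT6B, its low-level paralog, had 2.25 ± 0.764 CPM in the controls and 6.17 ± 1.41 CPM in KO (SD, n = 4; log2 fold change 1.59, edgeR adjusted p = 2.38e-06). Of the other HSP70 genes, HSPA6, which is strictly heat-induced, had 8 counts over the 4 control libraries and 52 over the 4 KO libraries, and 33.5% of its 80-base windows occur in HSPA7, so its value of 2.02 ± 0.487 (adjusted p = 0.00119) is uncertain. HSPA13 rose by 0.25. The other small HSP genes, CRYAB among them, summed to 0.727 to 1.89 CPM in the controls and 1.05 to 1.52 CPM in KO, and the 1 of 7 that could be tested did not pass.

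Of further HSP40 genes, DNAJB9 (0.58) and DNAJB11 (0.31), both of the endoplasmic reticulum, rose. DNAJC genes split into 6 rises and 8 falls among 27 tested, with DNAJC1 at 0.87, DNAJC6, which uncoats clathrin vesicles, at 0.79 and DNAJC3 at 0.50, against DNAJC12 at -0.62, the ribosome-bound DNAJC2 at -0.59 and DNAJC18 at -0.41. Chaperones of the endoplasmic reticulum gave 7 rises and 2 falls among 12 tested genes, with HSPA5, the HSP70 of that compartment, at 476, 440, 451 and 478 CPM in the controls and 732, 736, 752 and 655 CPM in KO (0.64 ± 0.0506, edgeR adjusted p = 9.87e-10). HYOU1 and PDIA4 rose by 0.31 and 0.32, and CRELD2 and SDF2L1 fell by 0.20 and 0.22. After thinning, CRELD2 was at -0.02 and the calls of CRELD2, SDF2L1 and NUDCD1 were lost, and SDF2L1 also lost its call without control sgRNA1 replicate 1. In the list of other heat shock factors and heat-induced genes, 5 of 8 tested genes rose. ATF3 had 38.4 ± 2.95 CPM in the controls and 225 ± 53.2 CPM in KO (2.53 ± 0.122, edgeR adjusted p = 5.46e-13). HMOX1 rose by 1.46, whereas the heat shock factor gene HSF4 (-0.61) and DEDD2 (-0.24) fell.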

How the data were processed

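RNA from 4 KO and 4 control HEK293 samples had been made into stranded poly(A) libraries, per the labels' protocols. The deposited values are raw gene counts of the authors, made with featureCounts on hg38 per the submitters' processing notes. Not given in the sources used here were the aligner, annotation and strand setting. Entries without a gene ID (459, 0.0284 to 0.0425% of counts) were left out. Symbols and positions came from RefSeq (GRCh38.p14) and exon overlaps from GENCODE v29.

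filterByExpr, run over the 4 groups with a minimum count of 10 and a total of 15, left 14455 genes. KO was tested against control with edgeR 4.0.16 (quasi-likelihood F test, TMM), with a term for guide number (5 residual degrees of freedom). Contrasts within and between guides used a model of the 4 group means (4 residual degrees of freedom), and glmTreat tested against a fold of 1.5. Benjamini-Hochberg adjustment ran over all 14455 genes, and an adjusted p below 0.05 was called. The biological coefficient of variation was 0.0473. The scripts were tested on simulated data.

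The members and gene lists were chosen with earlier results of these data known. Values per library are given for the 2 members of each family with the smallest p, for members past 1.5-fold and for others where a comparison turns on them. Of other pathway genes, up to 3 called each way per list were named, and 1 of these is not reported here, although it stayed in the counts. HSPA6, HSPA7, TUBB and HSPA1L values bear on near copies or neighbours. No protein sequences were used here. Promoter stretches stop where exons of the same gene begin. Alternatives were DESeq2 size factors, library totals, no filter, a filter at CPM 1 in 4 libraries, DESeq2 1.42.0, a replicate block, thinning to the smallest library and leaving out each library. Replicates differed by more than counting noise (chi-square per gene 1.61 to 7.41), so none was counted as a duplicate.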

Additional observations from a re-analysis of the deposited data

Results flagged for a closer look

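In groups of 4 libraries, the highest or lowest value was compared with the nearest other value by Dixon's ratio (critical value 0.829), which chance passes in about 5% of groups. Of 86 groups (43 genes in 2 arms), 3 passed. HSPD1 in KO stood at 1008 CPM in sgRNA2 replicate 2, above 934 to 943 CPM in the other KO libraries, and still under every control. CHORDC1 in KO stood at 93.3 CPM in sgRNA2 replicate 1, below 105 to 106 CPM in the others. PTGES3 in control stood at 833 CPM in sgRNA1 replicate 1, above 776 to 786 CPM in the others.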

How the results depend on the processing

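Of 43 tested chaperone genes, 28 kept their direction and side of the threshold under every alternative in which they were tested (16, or 15 for HSPA1B), among them 27 of the 32 called. The calls lost in some were those of HSPA8, HSPH1, DNAJA2, CCT2 and CCT8. Calls as lower were gained by HSPA4, DNAJA1, CCT4 and CCT7 with no filter and without control sgRNA1 replicate 2. DNAJA1 also gained one without KO sgRNA2 replicate 1. HSPB11 and TCP1 gained calls as higher with library totals. Reversals concerned 4 genes that did not pass: HSBP1 (0.01037 with library totals, 0.06302 thinned, and -0.07073 to 0.01287 when leaving out 1 library), BAG3 (0.01737 with library totals, 0.07624 thinned), HSPA14 (-0.02214 with no filter, and -0.04071 to 0.02814 when leaving out 1 library) and DNAJC7 (-0.005125 to 0.05165 when leaving out 1 library). Members past 1.5-fold numbered 2 higher, in place of 1, with library totals, no filter or thinning, the second being HSPA1B, and 1 to 2 when leaving out 1 library (HSPA1A the second without control sgRNA1 replicate 1, HSPA1B in the other such cases). Thinning left 1 lower, in place of 3. All genes past 1.5-fold numbered 986 with DESeq2 and 923 thinned, in place of 1616. With sgRNA1, 5 members rose with DESeq2, in place of 8, 11 with library totals, 10 with the stricter filter, and 5 to 8 when leaving out 1 library (5 without KO sgRNA1 replicate 1). The guide difference, called for 0 of all genes, was called for 11 with no filter and 0 to 25 when leaving out 1 library (25 without control sgRNA1 replicate 1, 23 without control sgRNA1 replicate 2, 3 without KO sgRNA2 replicate 1), and for 0 members throughout. The cause of these shifts was not tested. Scaling by library totals moved the median of all genes from 0.01 to 0.04.

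Replicate numbers did not pair the samples: deviations of same-numbered libraries correlated at -0.0179 for sgRNA1 and 0.0461 for sgRNA2 across genes. With the replicate block, 11 members rose and 19 fell (31.3% and 30.8% of all genes), 9 rose with sgRNA1, 2 were past 1.5-fold higher, HSPA1B the second, and the guide difference was called for 1 of all genes. Depth limits the low genes, HSPB8, HSPA6 and HSBP1L1 above all, and control sgRNA1 replicate 2 is the least precise library.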
